A study of Saccharomyces cerevisiae with 14 samples.

Results

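Transcript levels of the genes for tRNA synthetases and translation factors were followed in lager yeast strain CB11 through a brewery fermentation. The set is a list of 45 genes, of which 19 encode subunits of cytosolic synthetases and 26 encode factors of initiation, elongation or termination. A gene entered when the array annotation gave it at least 1 probe set of its own, and the brightest was used. By this rule 42 of the 45 were measured, comprising 19 of the 19 synthetase genes and 23 of the 26 factor genes, among 5449 S. cerevisiae genes with such a probe set. TIF1, EFT1 and TEF1 had none. Their near-identical partners TIF2, EFT2 and TEF2 were measured by probe sets that the manufacturer marks as shared between transcripts, so the value of each may hold both copies of the pair.

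Samples came from a production-scale cylindroconical vessel that was filled with oxygenated wort in several batches. The groups are the times after pitching, the addition of yeast to the wort: 8 h with 3 arrays, 30 h with 2 arrays, and 60, 80 and 102 h with 3 arrays each. The strain, the wort and the vessel were the same for all of them, and the yeast had been used in earlier fermentations. No array came from another vessel, so the times describe a single fermentation and p-values speak only of the spread between samples drawn from it, which may be technical. The labels name the organism S. cerevisiae. Lager yeasts are hybrids that carry a related genome as well, and a probe set may read transcripts of both parents. In a sample of a whole culture, fewer cells that carry a transcript and less of it per cell cannot be told apart.

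Each synthetase joins an amino acid to its tRNA, and the enzymes fall into class I and class II by the fold of their catalytic domain. Initiation factors bring the ribosome, the initiator tRNA and the mRNA together. eIF2 delivers the initiator tRNA as a complex with GTP, eIF5 triggers the hydrolysis of that GTP, and eIF2B recharges eIF2 for the next round. Elongation factors carry tRNAs to the ribosome and move it along the message, and release factors end the chain at a stop codon. In growing yeast these genes are among the abundantly transcribed ones, together with those for ribosomal proteins.

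Values are normalized signals on a linear scale, and changes are differences of mean log2 signal, later time minus earlier time, with the standard error of the limma fit. A change was called where the adjusted p of that fit over 5338 probe sets was below 0.05. All 42 probe sets were above the background threshold, a signal of 22.1, on each of the 14 arrays. Deposited array medians lay between 22.6 and 38.7, and arrays of the same time correlated at 0.903 to 0.994 across the probe sets tested. The signal of control transcripts was low toward their 5′ end on 3 arrays. Over 8 control transcripts, the mean log2 ratio of 5′ to 3′ signal was -3.28 on 8 h replicate 1, -4.41 on 60 h replicate 1 and -1.85 on 60 h replicate 2. The remaining arrays lay between -1.18 and -0.51. Each comparison is therefore also counted with those 3 arrays left out. For 60 h such counts rest on 1 array, whose spread is assumed to be that of the other times.

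Most synthetase genes were highest early in the fermentation, while the factor genes had no common course. The mean log2 signal was highest at 8 h for 18 of the 19 synthetase genes, the exception being MES1, which was highest at 60 h. For KRS1 the means at 8 and 30 h were nearly equal, at 11.07 and 11.06. For ALA1 and YDR341C the maximum at 8 h rests on replicate 1, an array of low 5′ signal. The other 8 h arrays read 1500 and 1460 for ALA1, against 1570, 1600 and 1440 at 80 h. For YDR341C they read 1930 and 1840, against 1860, 2090 and 2060. Among the 23 factor genes the highest mean fell at 8 h for 10, at 30 h for 2, at 80 h for 1 and at 102 h for 10. A change over the 5 times was called for 32 of the 42 genes by the moderated F-test in limma, beside 68.5% of all probe sets tested. The 32 were 17 of the 19 synthetase genes and 15 of the 23 factor genes. The count was 36, beside 81.9% of all probe sets, when the 3 arrays of low 5′ signal were left out.

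**Figure D1:**
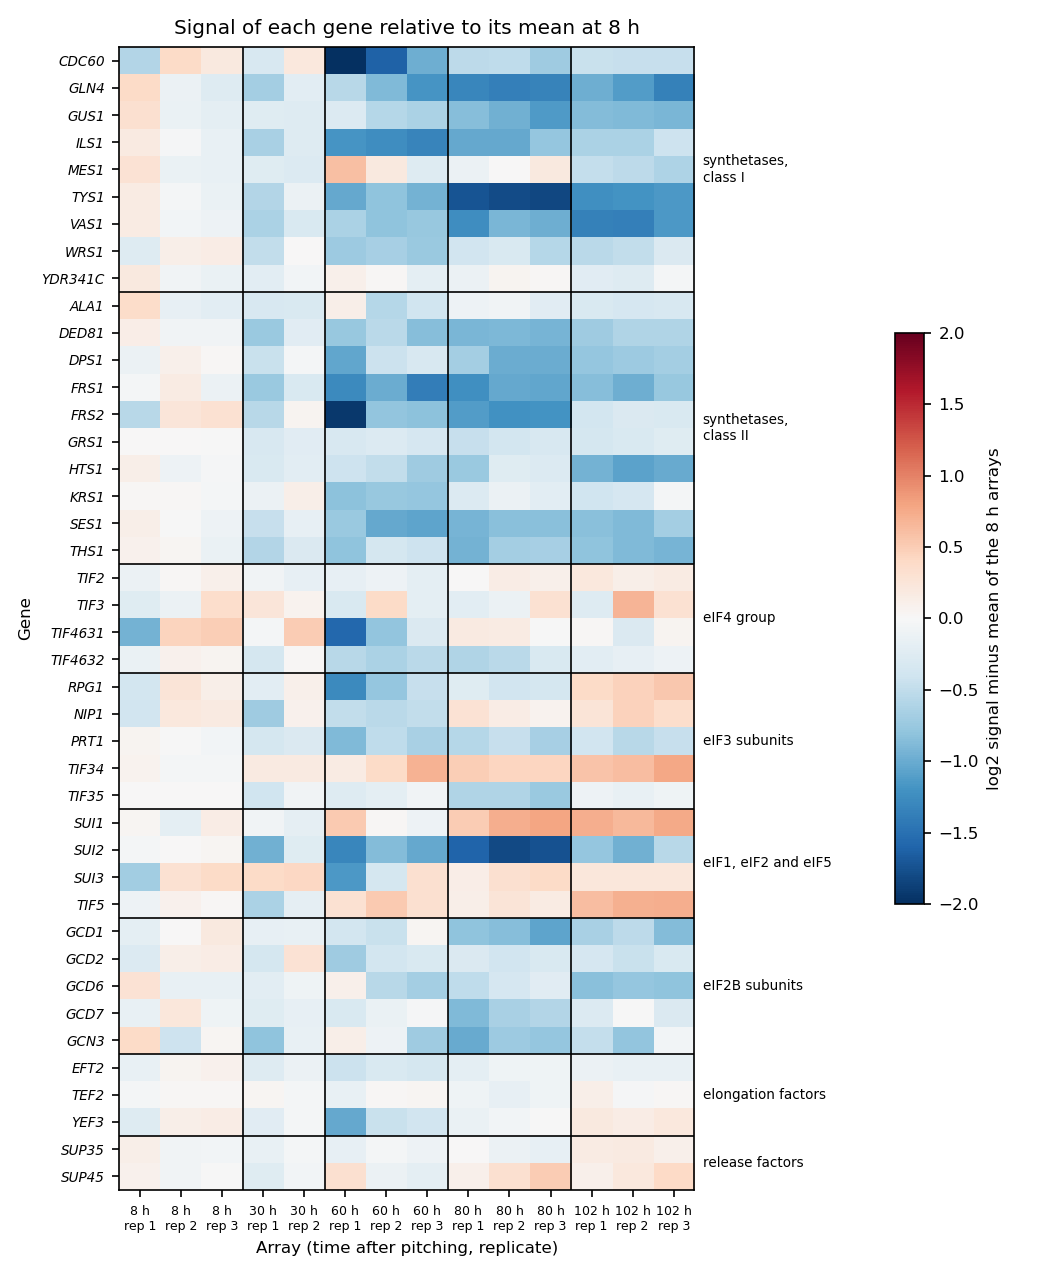
Log2 signal of each of the 42 genes (rows, grouped by role) on each of the 14 arrays (columns, by time after pitching and replicate), minus the mean of that gene at 8 h; blue is lower and red is higher. Most synthetase rows turn blue from 60 h on, whereas the factor rows hold blue (SUI2, GCD1), red (TIF34, TIF5) and nearly white (TEF2) courses.

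The course of the list can be read from the median log2 difference of each array from the 8 h mean. For synthetases it was 0.13, -0.02 and -0.11 on the 8 h arrays, -0.47 and -0.21 at 30 h, -0.73, -0.67 and -0.75 at 60 h, -0.85, -0.83 and -0.77 at 80 h and -0.71, -0.63 and -0.62 at 102 h. Every array from 60 h on was thus lower than every array of 8 and 30 h. For factors the median was -0.12, 0.02 and 0.05 at 8 h, -0.23 and -0.05 at 30 h, -0.31, -0.30 and -0.20 at 60 h, -0.19, -0.12 and -0.09 at 80 h and 0.03, -0.01 and 0.07 at 102 h. The lowest factor medians were on 60 h replicates 1 and 2, which are arrays of low 5′ signal. On 60 h replicate 3 the median of -0.20 lay between those of the 30 h arrays. At 102 h the factor medians overlapped those of 8 h. Over all probe sets tested the medians stayed between -0.09 and 0.08.

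**Figure D2:**
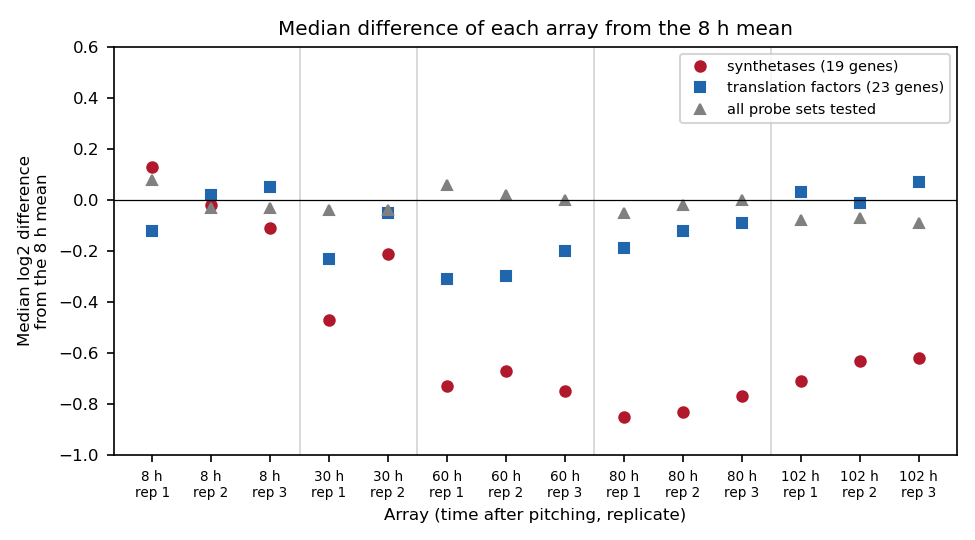
Median log2 difference of each array from the 8 h mean, for the 19 synthetase genes (circles), the 23 factor genes (squares) and all 5338 probe sets tested (triangles), by time after pitching and replicate. Synthetase medians reach -0.85 at 80 h, and factor medians return to between -0.01 and 0.07 at 102 h.

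The end of the sampled course was set against its start first. At 102 h 18 of the 42 genes were lower than at 8 h and 3 were higher, beside 28.6% of all probe sets lower and 21.6% higher. All 3 that rose were initiation factor genes. The fall took in 14 of the 19 synthetase genes and 4 of the 23 factor genes. The median log2 change was -0.64 for synthetases and 0.04 for factors, beside -0.09 for all probe sets. Without the 3 arrays of low 5′ signal these medians were -0.73, -0.11 and -0.06, so that of the factors changed sign. All 19 synthetase genes had an estimate below 0, from -1.29 to -0.17, beside 2875 of the 5338 probe sets tested. In a fit on the 11 arrays without low 5′ signal 23 genes were lower, 16 of them synthetases, and 5 were higher, beside 33.7% and 28.6% of all probe sets. Of the 21 calls, 18 held in each of the 27 other settings at that threshold, left-out arrays included. MES1, WRS1 and GRS1 missed the threshold in some, with adjusted p up to 0.12, 0.10 and 0.11.

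**Figure D3:**
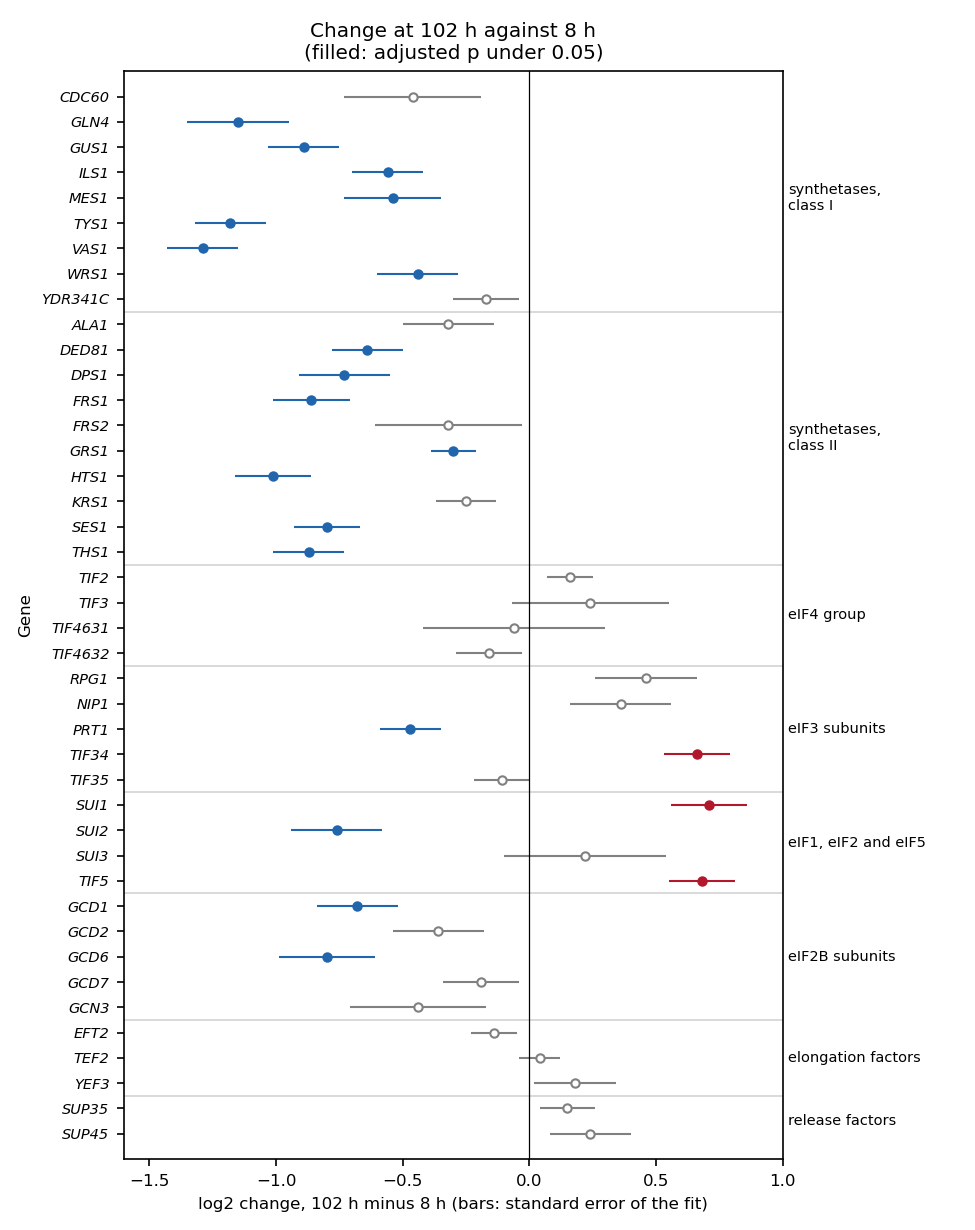
Log2 change at 102 h against 8 h for each of the 42 genes, grouped by role, with bars of 1 standard error of the limma fit; filled points have an adjusted p below 0.05. The synthetases span -1.29 (VAS1) to -0.17 (YDR341C), and the factors span -0.80 (GCD6) to 0.71 (SUI1).

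Class I held 7 called genes of 9, all lower at 102 h, with a median log2 change of -0.56. VAS1 encodes the valyl-tRNA synthetase of both cytosol and mitochondria. Its signal was 1230, 1060 and 1030 on the 8 h arrays, 708 and 891 at 30 h, 710, 631 and 653 at 60 h, 468, 587 and 562 at 80 h and 432, 426 and 500 at 102 h. The 102 h arrays were all lower than the 8 h, 30 h and 60 h arrays, and overlapped those of 80 h. VAS1 fell by 1.29 ± 0.14 on the log2 scale at 102 h, a 2.44-fold lower level than at 8 h (limma adjusted p = 1.1e-05).

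TYS1, the tyrosyl-tRNA synthetase gene, had the largest F statistic of the list, 49.9 (limma adjusted p = 4.3e-06). It read 1030, 897 and 839 at 8 h, 609 and 848 at 30 h, 451, 526 and 476 at 60 h, 278, 266 and 259 at 80 h and 394, 403 and 415 at 102 h. The times were separate from each other except 8 and 30 h, and the lowest values were at 80 h rather than at the end. At 102 h TYS1 averaged 404 ± 10.6, against 922 ± 98.3 at 8 h (SD, n = 3 each). That is a log2 change of -1.18 ± 0.14 (adjusted p = 2.0e-05).

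ILS1, which encodes isoleucyl-tRNA synthetase, reached its low point earlier. Its arrays gave 1380, 1200 and 1100 at 8 h, 781 and 1020 at 30 h, 538, 519 and 488 at 60 h, 599, 600 and 716 at 80 h and 784, 785 and 917 at 102 h. The 60 h arrays were below all others, and the 102 h arrays overlapped only those of 30 h. ILS1 fell by 0.56 ± 0.14 at 102 h against 8 h (adjusted p = 0.0050).

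GLN4, for glutamine, had a mean signal of 706 ± 92.5 at 102 h, against 1580 ± 390 at 8 h (SD, n = 3 each), and fell by 1.15 ± 0.20 on the log2 scale (adjusted p = 4.2e-04). GUS1, the glutamyl-tRNA synthetase gene, fell by 0.89 ± 0.14 (adjusted p = 2.2e-04). Its 3 arrays at 102 h lay between 2240 and 2330, against 3720 to 5270 at 8 h, and the groups did not overlap. MES1, for methionine, read 733, 552 and 542 at 8 h, 509 and 500 at 30 h, 916, 692 and 505 at 60 h, 558, 605 and 688 at 80 h and 433, 418 and 392 at 102 h. It was described because it alone among the synthetases peaked at 60 h, and that peak rests on 60 h replicates 1 and 2, which are arrays of low 5′ signal. Its 60 h replicate 3 lay between the 30 h arrays.

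Class II also held 7 called genes, of 10, all lower at 102 h, with a median log2 change of -0.68. HTS1, whose product charges tRNA with histidine in cytosol and mitochondria, averaged 456 ± 22.2 at 102 h, against 920 ± 73.5 at 8 h (SD, n = 3 each). Its log2 change was -1.01 ± 0.15 (adjusted p = 1.1e-04), and its largest step came at the end of the course. THS1, for threonine, changed by -0.87 ± 0.14 (adjusted p = 2.6e-04). FRS1, the beta subunit of phenylalanyl-tRNA synthetase, changed by -0.86 ± 0.15 (adjusted p = 3.8e-04), and SES1, for serine, by -0.80 ± 0.13 (adjusted p = 2.3e-04). DPS1, for aspartate, and DED81, for asparagine, fell by 0.73 and 0.64. GRS1, for glycine, fell by 0.30 ± 0.09 (adjusted p = 0.016), the smallest called change among the synthetases.

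FRS1 and FRS2 encode the 2 subunits of the same enzyme, and only FRS1 was called at 102 h against 8 h. FRS2, the alpha subunit, read 488, 517 and 513 at 102 h, against 430, 747 and 784 at 8 h. The low 8 h value is on the array of low 5′ signal, and the change was -0.32 ± 0.29 with all arrays (adjusted p = 0.38) and -0.60 ± 0.14 without the 3 arrays (adjusted p = 0.0027). CDC60, the cytosolic leucyl-tRNA synthetase gene, moved likewise. It read 558, 548 and 552 at 102 h, against 503, 993 and 871 at 8 h, and changed by -0.46 ± 0.27 with all arrays (adjusted p = 0.18) and by -0.75 ± 0.14 without the 3 (adjusted p = 4.3e-04). Both genes are singled out after their values were seen.

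YDR341C and ALA1 had the smallest F statistics among the synthetases. YDR341C, the arginyl-tRNA synthetase gene, read 2310, 1930 and 1840 at 8 h, 1740 and 1940 at 30 h, 2160, 2040 and 1760 at 60 h, 1860, 2090 and 2060 at 80 h and 1730, 1680 and 1970 at 102 h. Arrays of all times overlapped, and the F-test gave an adjusted p of 0.60. ALA1, for alanine in cytosol and mitochondria, read 2180, 1500 and 1460 at 8 h, 1350 and 1360 at 30 h, 1820, 1130 and 1280 at 60 h, 1570, 1600 and 1440 at 80 h and 1370, 1340 and 1350 at 102 h. Its highest arrays were 8 h replicate 1 and 60 h replicate 1, the 2 with the lowest 5′ to 3′ ratio, and the F-test gave an adjusted p of 0.40. KRS1, for lysine, was the remaining synthetase with no call at 102 h against 8 h, with a log2 change of -0.25 ± 0.12 (adjusted p = 0.083). Of the 4 genes grouped here as also serving mitochondria, a list that may not be complete, VAS1, HTS1 and GRS1 were lower and ALA1 was not called.

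**Figure D4:**
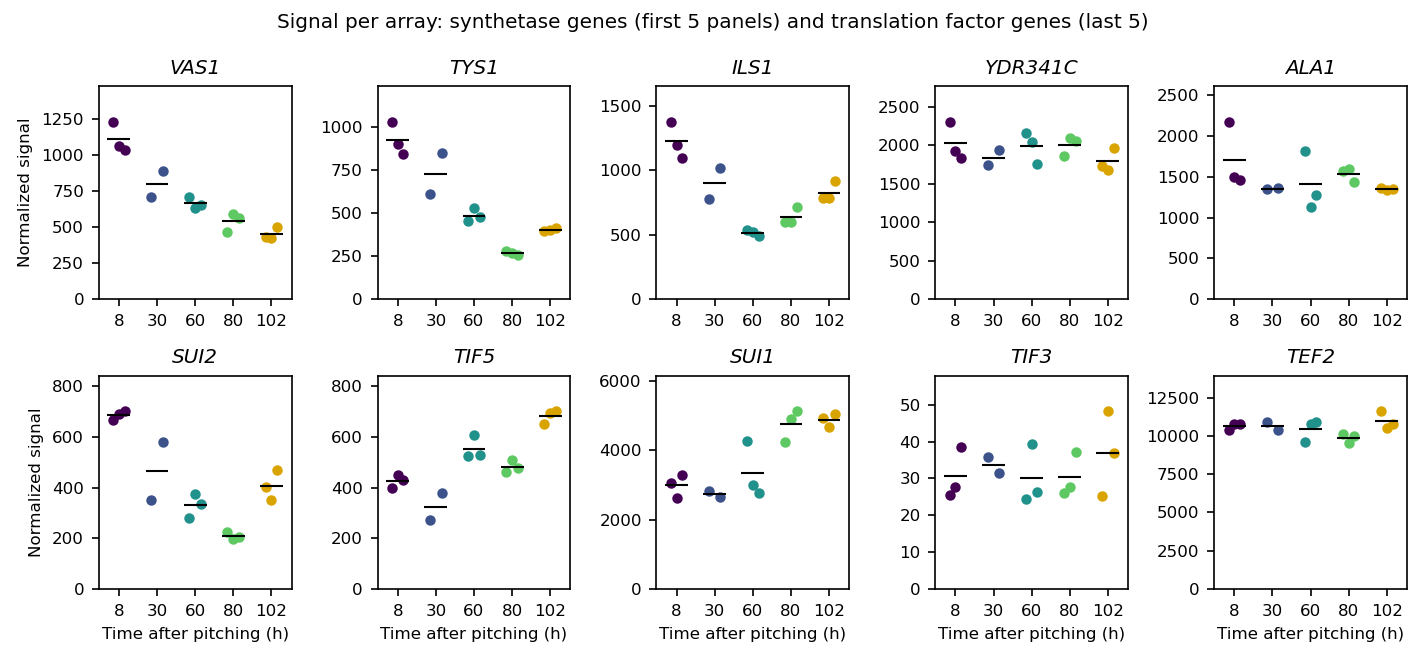
Normalized signal on each array (points) and the mean of each time (bars) against time after pitching, for the 3 synthetase genes with the largest and the 2 with the smallest F statistic (upper row) and the 5 factor genes chosen the same way (lower row). TYS1 and SUI2 have their lowest arrays at 80 h, SUI1 is at 4250 or more on all arrays of 80 and 102 h, and the arrays of YDR341C overlap at all times.

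The eIF1, eIF2 and eIF5 genes moved in both directions at 102 h against 8 h, with 2 higher and 1 lower of 4. The shares of all probe sets were 21.6% higher and 28.6% lower. SUI2 encodes the alpha subunit of eIF2, the subunit that Gcn2 phosphorylates when amino acids are scarce. It read 667, 690 and 701 at 8 h, 352 and 579 at 30 h, 279, 375 and 336 at 60 h, 227, 197 and 206 at 80 h and 402, 352 and 469 at 102 h. The 8 h arrays were above all others and the 80 h arrays below all others. SUI2 changed by -0.76 ± 0.18 at 102 h against 8 h (adjusted p = 0.0036).

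TIF5, the eIF5 gene, had the opposite net change from 8 to 102 h. It read 397, 449 and 430 at 8 h, 273 and 377 at 30 h, 523, 608 and 530 at 60 h, 461, 508 and 478 at 80 h and 649, 695 and 700 at 102 h, and no 2 times overlapped. Its mean was lowest at 30 h and highest at 102 h. TIF5 rose by 0.68 ± 0.13 at 102 h against 8 h (adjusted p = 9.8e-04).

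SUI1 encodes eIF1, which helps select the start codon. It read 3070, 2610 and 3290 at 8 h, 2840 and 2640 at 30 h, 4270, 3010 and 2760 at 60 h, 4250, 4900 and 5120 at 80 h and 4930, 4680 and 5030 at 102 h. The arrays of 102 h were above all those of 8 and 30 h and of 60 h, and overlapped those of 80 h. SUI1 rose by 0.71 ± 0.15 (adjusted p = 0.0018), the largest rise of the list in this comparison. SUI3, the beta subunit of eIF2, was not called in any comparison. Its 3 lowest arrays, 762 at 8 h and 555 and 963 at 60 h, were the 3 of low 5′ signal, and the other 11 lay between 1350 and 1650.

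Of the 5 eIF2B genes 2 were lower at 102 h than at 8 h and 0 were higher, beside 28.6% and 21.6% of all probe sets. The estimates ran from -0.80 to -0.19, with a median of -0.44. GCD6 encodes the catalytic epsilon subunit, and read 311, 323 and 316 at 102 h, against 678, 499 and 498 at 8 h. The groups did not overlap, and its log2 change was -0.80 ± 0.19 (adjusted p = 0.0035). GCD1, the gamma subunit, read 251, 275 and 216 at 102 h, against 343, 397 and 452 at 8 h, again with no overlap, and changed by -0.68 ± 0.16 (adjusted p = 0.0029). GCD2, the delta subunit, had a change of -0.36 ± 0.18 (adjusted p = 0.11), and GCN3, the alpha subunit, had -0.44 ± 0.27 (adjusted p = 0.19). GCD2 was called as well when the 3 arrays were left out, at -0.50 (adjusted p = 0.014).

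Of 5 genes for subunits of eIF3, the scaffold of the initiation complex on the small ribosomal subunit, 1 was higher and 1 lower. Among all probe sets 21.6% were higher and 28.6% lower at 102 h against 8 h. TIF34, the i subunit, read 1830, 1890 and 2100 at 102 h, against 1300, 1200 and 1200 at 8 h. It rose by 0.66 ± 0.13 (adjusted p = 9.6e-04), and was the only gene of the list with its lowest mean at 8 h. PRT1, the b subunit, read 799, 714 and 759 at 102 h, against 1090, 1040 and 1010 at 8 h. It fell by 0.47 ± 0.12 (adjusted p = 0.0056). Neither gene had arrays that overlapped between 102 and 8 h. RPG1, the a subunit, had a change of 0.46 ± 0.20 (adjusted p = 0.073), and NIP1, the c subunit, had 0.36 ± 0.20 (adjusted p = 0.15). On the 11 arrays without low 5′ signal the change of RPG1 was 0.28 ± 0.11 and called (adjusted p = 0.040). A change over the 5 times was called for all 5 eIF3 genes, beside 68.5% of all probe sets tested. They include TIF35, the g subunit, which is described with 80 h.

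Of the 4 genes of the eIF4 group measured, 0 passed the limma test at 102 h against 8 h, and 0 had an unadjusted p below 0.05. TIF4631 and TIF4632 are paralogs for eIF4G, the scaffold that joins cap-binding protein and helicase, and each has a probe set of its own. TIF4632 read 646, 750 and 732 at 8 h, 552 and 720 at 30 h, 481, 457 and 489 at 60 h, 468, 488 and 570 at 80 h and 609, 635 and 658 at 102 h. Its 60 h arrays were below all those of 8, 30 and 102 h, and a change over the 5 times was called (adjusted p = 0.0073). TIF4631 read 164, 426 and 444 at 8 h, 305 and 447 at 30 h, 106, 181 and 257 at 60 h, 354, 353 and 311 at 80 h and 320, 258 and 328 at 102 h. Its 3 lowest arrays were the 3 of low 5′ signal, and the F-test gave an adjusted p of 0.092. Without them TIF4631 was lower at 102 h than at 8 h, with a log2 change of -0.53 ± 0.16 (adjusted p = 0.0097), against -0.06 ± 0.36 with all arrays.

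TIF2, for the helicase eIF4A, read 4380, 4850 and 5120 at 8 h, 4560 and 4280 at 30 h, 4250, 4430 and 4150 at 60 h, 4790, 5270 and 5110 at 80 h and 5500, 5170 and 5330 at 102 h. The 102 h arrays were above those of 8, 30 and 60 h, yet the change against 8 h was 0.16 ± 0.09 (adjusted p = 0.16). TIF3, the eIF4B gene, read between 24.5 and 48.2 on all arrays, close to the background threshold. Its arrays overlapped at all times, and the F-test gave an adjusted p of 0.88.

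Elongation and release factors held 0 calls of 3 and 0 of 2 at 102 h against 8 h in the limma fit, and 0 at an unadjusted p below 0.05. TEF2, for eEF1A, which brings charged tRNAs to the ribosome, read 10400, 10800 and 10800 at 8 h, 10900 and 10400 at 30 h, 9610, 10800 and 10900 at 60 h, 10100, 9520 and 10000 at 80 h and 11600, 10500 and 10800 at 102 h. All arrays lay between 9520 and 11600, those of 80 h below those of 8, 30 and 102 h, and the F-test gave an adjusted p of 0.52. EFT2, for the translocase eEF2, read 7390, 8510 and 8640 at 8 h, 6860 and 7510 at 30 h, 6080, 6620 and 6420 at 60 h, 7130, 7650 and 7710 at 80 h and 7510, 7390 and 7390 at 102 h. All its 60 h arrays were below those of the other times. Signals as bright as these can be compressed on an array. On the 11 arrays of higher 5′ signal EFT2 was lower at 102 h than at 8 h, by a log2 change of -0.21 ± 0.08 (adjusted p = 0.033). SUP35 and SUP45 encode the release factors eRF3 and eRF1, and had changes of 0.15 ± 0.11 and 0.24 ± 0.16 (adjusted p = 0.26 and 0.22). SUP35 was called on the same 11 arrays, at 0.21 ± 0.08 (adjusted p = 0.045).

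The consecutive times place these changes along the fermentation. Between 8 and 30 h no gene of the list passed the limma test, beside 0.244% of all probe sets. At an unadjusted p below 0.05 there were 11, all with lower signal at 30 h, beside 16.5% of all probe sets in either direction. The median log2 change of the list was -0.23, and -0.04 for all probe sets. Estimates ran from -0.60 for SUI2 to 0.39 for SUI3. On the 11 arrays of higher 5′ signal FRS1 was the only call, at -0.55 ± 0.15 (adjusted p = 0.040), beside 8.13% of all probe sets. The 2 arrays of 30 h differed, with replicate 1 lower than replicate 2 for 17 of the 19 synthetase genes and 18 of the 23 factor genes. Without replicate 2 the median log2 change of the list was -0.32, and without replicate 1 it was -0.12, each leaving 1 array at 30 h.

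At 60 h 8 genes were lower than at 30 h and 1 was higher, beside 11.7% of all probe sets lower and 16.2% higher. The list had a median log2 change of -0.24, against 0.05 for all probe sets. The 8 were 7 synthetase genes and RPG1. KRS1 had the smallest adjusted p of these falls. It read 1220, 1270 and 1250 at 60 h, against 1980 and 2320 at 30 h, with no overlap, and changed by -0.78 ± 0.13 (adjusted p = 8.8e-04). ILS1 fell by 0.79 ± 0.16 (adjusted p = 0.0026), FRS1 by 0.68 ± 0.16 (adjusted p = 0.0081), SES1 by 0.63 ± 0.14 (adjusted p = 0.0061) and TYS1 by 0.57 ± 0.15 (adjusted p = 0.014). RPG1 read 288, 409 and 506 at 60 h, against 599 and 749 at 30 h, and fell by 0.78 ± 0.22 (adjusted p = 0.020). Its lowest 60 h values are on the arrays of low 5′ signal, and its change was -0.41 ± 0.14 with those and 8 h replicate 1 left out (adjusted p = 0.047). TIF5 was the gene that rose, by 0.78 ± 0.15 (adjusted p = 0.0021).

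CDC60 and FRS2 completed the 60 h falls. CDC60 read 181, 248 and 387 at 60 h, against 607 and 876 at 30 h, and changed by -1.50 ± 0.31 (adjusted p = 0.0034). FRS2 read 165, 366 and 359 at 60 h, against 430 and 657 at 30 h, and changed by -0.93 ± 0.33 (adjusted p = 0.0495). When the 3 arrays of low 5′ signal were left out, the changes were -0.91 for CDC60 (adjusted p = 0.0026) and -0.56 for FRS2 (adjusted p = 0.037), both still called on the single remaining 60 h array. For SUI3 the estimate was -0.79 with all arrays and -0.08 without the 3, and for TIF4631 -1.12 and -0.52, neither called in either fit. In that fit 12 genes were lower and 2 higher, beside 15.6% and 17.8% of all probe sets. The size of the fall depended on which 30 h array was kept. With 30 h replicate 2 left out the median log2 change of the list was -0.11, and with replicate 1 left out -0.36. Each of those fits holds 1 array of 30 h. The count of 9 was 0 in a limma fit on the 5 arrays of these times alone, beside 4.29% of all probe sets.

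**Figure D5:**
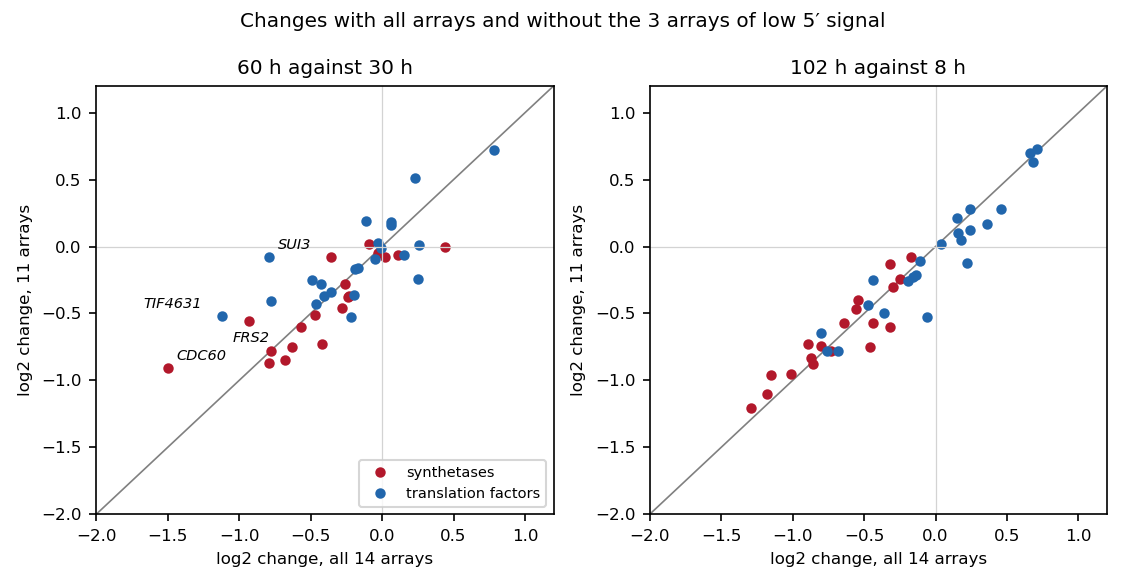
Log2 change of each gene with all 14 arrays (horizontal axis) against the change without the 3 arrays of low 5′ signal (vertical axis), for 60 h against 30 h (left) and 102 h against 8 h (right); the diagonal marks equal values. CDC60, FRS2, TIF4631 and SUI3 lie above the diagonal on the left, at -0.91, -0.56, -0.52 and -0.08 without the 3 arrays.

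At 80 h against 60 h the list split, with 5 genes higher and 6 lower, beside 9.42% of all probe sets higher and 10.9% lower. The median log2 change was 0.03, against -0.04 for all probe sets. TYS1 had the largest fall, by 0.85 ± 0.14 (adjusted p = 0.0013). SUI2 fell by 0.65 ± 0.18 (adjusted p = 0.024), GCD1 by 0.64 ± 0.16 (adjusted p = 0.012), GCD7, the beta subunit of eIF2B, by 0.55 ± 0.15 (adjusted p = 0.020), and GUS1 by 0.49 ± 0.14 (adjusted p = 0.027). TIF35 read 1010, 1020 and 916 at 80 h, against 1290, 1340 and 1470 at 60 h. Its 80 h arrays were the lowest of the course, and it fell by 0.48 ± 0.11 (adjusted p = 0.0094).

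Among the rises at 80 h, KRS1 read 1770, 1970 and 1850, against 1220, 1270 and 1250 at 60 h, and rose by 0.58 ± 0.12 (adjusted p = 0.0045). NIP1 rose by 0.68 ± 0.20 (adjusted p = 0.027), and SUI1 by 0.53 ± 0.15 (adjusted p = 0.027). YEF3, the gene of the fungal elongation factor eEF3, read 5870, 6220 and 6420 at 80 h, against 3180, 4730 and 4940 at 60 h, and rose by 0.55 ± 0.16 (adjusted p = 0.026). The lowest of these 60 h values is on the array with the lowest 5′ to 3′ ratio, and the rise of YEF3 was 0.32 ± 0.10 without the 3 arrays (adjusted p = 0.043). CDC60 rose by 0.97 ± 0.27 (adjusted p = 0.025), and by 0.39 without the 3 arrays, no longer called (adjusted p = 0.12). Without those arrays 5 genes were higher and 7 lower, beside 11.4% and 11.3% of all probe sets. The split depended on the scaling of the arrays. On the scale the authors deposited 11 genes were higher and 1 lower, with a shift of 0.25 in the median of all probe sets, and with arrays centred on their median 3 were higher and 5 lower. TYS1 was the gene that fell on the authors' scale, where the falls of SUI2, GCD1, GCD7, GUS1 and TIF35 were not called. Leaving out 80 h replicate 2 or 3 lowered the count of 11 to 4, beside 10.2% and 13% of all probe sets. Leaving out 60 h replicate 2 lowered it to 5, beside 12.9%, and leaving out 80 h replicate 1 to 7, beside 11.4%. The share with all arrays was 20.3%.

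At 102 h against 80 h 6 genes were higher and 1 lower, beside 7.59% of all probe sets higher and 8.36% lower. The median log2 change was 0.13, against -0.04 for all probe sets. SUI2 rose by 0.95 ± 0.18 (adjusted p = 0.0044) and averaged 408 ± 58.9 at 102 h, against 210 ± 15.3 at 80 h (SD, n = 3 each). TYS1 rose by 0.60 ± 0.14 (adjusted p = 0.012), and TIF35 by 0.54 ± 0.11 (adjusted p = 0.0073). RPG1 read 904, 957 and 1010 at 102 h, against 587, 534 and 545 at 80 h, and rose by 0.78 ± 0.20 (adjusted p = 0.019). GCD7 rose by 0.52 ± 0.15 (adjusted p = 0.032) and TIF5 by 0.50 ± 0.13 (adjusted p = 0.024). The gene that fell was HTS1, which read 479, 435 and 455 at 102 h, against 551, 779 and 758 at 80 h, with no overlap and a change of -0.59 ± 0.15 (adjusted p = 0.016).

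SUI2, TYS1, GCD7 and TIF35 had therefore fallen at 80 h against 60 h and risen at 102 h against 80 h. Those comparisons share the 80 h arrays. The scaling touched this step as well. On the authors' scale 1 gene was higher and 5 were lower at 102 h, with the median of all probe sets shifted by -0.31, and with centred arrays 7 were higher and 1 lower. SUI2 was the gene that rose on the authors' scale, where the rises of TYS1, RPG1, TIF35, TIF5 and GCD7 were not called. In the fit on 11 arrays 12 were higher and 3 lower, beside 19.7% and 23.1% of all probe sets. The count of 7 was 2 without 80 h replicate 3 or without 102 h replicate 3, beside 6.86% and 7.12% of all probe sets. It was 3 without 80 h replicate 2 or 102 h replicate 2, beside 7.09% and 8.28%. The share with all arrays was 15.9%.

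Coding length was set beside the changes as a description across genes, which share the same arrays. Pearson's r between the log2 coding length and the log2 change was -0.38 over the 42 genes for 60 h against 30 h, and -0.06 over all probe sets tested. For 102 h against 8 h it was -0.31, and 0.00 over all probe sets. Median coding length was 1824 bases for the synthetase genes and 1377 for the factor genes, so role and length are not separate here.

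Neighbouring lists of the translation machinery give the setting at 102 h against 8 h, where 28.6% of all probe sets were lower and 21.6% higher. On the 11 arrays without low 5′ signal these shares were 33.7% and 28.6%. ARC1, the cofactor of the methionyl and glutamyl enzymes, and YHR020W, the prolyl-tRNA synthetase gene, were both lower, with log2 changes of -0.73 ± 0.16 (adjusted p = 0.0021) and -0.91 ± 0.14 (adjusted p = 2.0e-04). Of 14 genes for mitochondrial synthetases 8 were lower and 0 higher, with a median of -0.51, and 9 were lower on the 11 arrays, with a median of -0.39. DIA4, a probable seryl-tRNA synthetase, fell by 1.46 ± 0.22 (adjusted p = 1.6e-04). Of 6 mitochondrial translation factor genes 3 were lower and 1, MEF2, was higher by 1.47 ± 0.15 (adjusted p = 8.1e-06). Of the 6, 4 were lower and 1 higher on the 11 arrays.

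Of 16 other cytosolic factor genes 8 were higher and 4 lower at 102 h, with a median of 0.50. Over all probe sets 21.6% were higher and 28.6% lower. On the 11 arrays 9 were higher and 5 lower, with a median of 0.31. HEF3, the paralog of YEF3, read 1260 on all 3 arrays at 102 h, against 402, 407 and 396 at 8 h, and rose by 1.65 ± 0.27 (adjusted p = 2.4e-04). DED1, an RNA helicase of initiation, rose by 2.27 ± 0.51 (adjusted p = 0.0024). ANB1, the eIF5A form known from oxygen-poor S. cerevisiae cells, fell by 1.08 ± 0.17 (adjusted p = 2.2e-04). Neither CAF20 nor EAP1, whose products bind the cap-binding protein, passed the limma test, and 0 of these 2 had an unadjusted p below 0.05. Both were called on the 11 arrays, CAF20 at 0.25 ± 0.09 (adjusted p = 0.021) and EAP1 at -0.50 ± 0.11 (adjusted p = 0.0017).

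Among 5 genes of general amino acid control, the pathway in which Gcn2 acts on eIF2, 1 was lower and 1 higher, and 2 were lower and 2 higher on the 11 arrays. GCN1, for the activator of Gcn2, read 622, 561 and 475 at 102 h, against 1440, 1420 and 1420 at 8 h, and changed by -1.38 ± 0.16 (adjusted p = 1.7e-05). GCN4, for the transcription factor of the pathway, had a change of 0.56 ± 0.23 (adjusted p = 0.056), and of 0.34 ± 0.09 on the 11 arrays (adjusted p = 0.0056). YIH1 rose by 2.09 ± 0.68 (adjusted p = 0.022), with 43 at 8 h replicate 1, the array of low 5′ signal, and 263 and 281 on the other 8 h arrays. The rise of YIH1 was 1.21 ± 0.10 on the 11 arrays (adjusted p = 1.1e-06). Of 127 cytosolic ribosomal protein genes 92 were lower and 0 higher at 102 h against 8 h, with a median of -0.61, and 104 were lower on the 11 arrays. At 60 h against 30 h 97 of them were lower, with a median of -0.95, beside 11.7% of all probe sets lower. At 80 h against 60 h 60 were higher, with a median of 0.53, beside 9.42% of all probe sets higher and 10.9% lower. On the 11 arrays the median of the ribosomal protein genes at 60 h against 30 h was -1.1. With all arrays 2 synthetase genes were higher and 2 lower at 80 h against 60 h, with a median of 0.01. On the 11 arrays the median at this step was 0.18 for synthetases and 0.72 for ribosomal protein genes. That fit holds 1 array of 60 h.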

How the data were processed

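The authors deposited a table of linear signal intensity for each probe set of 14 single-colour Affymetrix yeast arrays. The software was GCOS 5.0, per the submitters' processing notes, and its scaling target is not stated there. RNA was primed with oligo-dT, per the labels' protocols. Probe sets were named from the platform annotation, with symbols brought up to date from a RefSeq table (assembly R64) that served for names alone.

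Array medians differed by up to 0.777 (log2), more than the tolerance of 0.2, and values were quantile normalized. The background threshold was the 95th percentile of the dimmer part of the probe sets, a signal of 22.1, and log2 values had a floor of 5.58. Probe sets above the threshold on at least 2 arrays of some time, 5338 in all, entered 1 limma 3.58.1 fit (R 4.3.3) of the 5 times with an intensity trend. A change was called at a Benjamini-Hochberg adjusted p under 0.05. The steps were tested on simulated data.

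Genes named are the largest called changes of each comparison, up to 4 per role, paralog pairs and the largest and smallest F statistics. The genes, roles and lists were chosen with earlier results of these data known. Replicate numbers were not treated as pairs. Deviations correlated above 0.1 in 4 of 26 same-numbered pairs across times and in 6 of 52 differently numbered pairs. The median r was 0.01 and 0, and such counts cannot settle whether the numbers mark pairs. CRS1, the cysteinyl-tRNA synthetase gene, was not analysed here.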

Additional observations from a re-analysis of the deposited data

How the results depend on the processing

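Counts over the 5 times (32) and at 102 h against 8 h (21) stayed within 1.5 times under each alternative run, and 0 called changes of single genes turned direction. For 30 h against 8 h, 0 calls became 4 with the mean 5′ to 3′ ratio of each array as covariate, 1 without the 3 arrays of low 5′ signal and 0 to 4 with single arrays left out. For 60 h against 30 h, 9 calls became 14 with arrays centred on their median, 14 with the replicate number as a block, 16 with the covariate, 14 without the 3 arrays, 0 on the arrays of both times alone, and 2 to 14 with single arrays left out. For 80 h against 60 h, 11 calls became 3 at a threshold of 0.01, 4 on the arrays of both times alone and 4 to 15 with single arrays left out. For 102 h against 80 h, 7 calls became 13 with the covariate, 15 without the 3 arrays, 2 at the threshold of 0.01, 19 on the arrays of both times alone and 2 to 10 with single arrays left out. The share of all probe sets called also moved, given here with the main fit first. For 30 h against 8 h it was 0.244%, and 8.02% with the covariate. For 60 h against 30 h it was 28%, 39% with the covariate, 28.2% with centred arrays and 4.29% on both times alone. For 80 h against 60 h it was 20.3%, 8.51% at 0.01 and 11% on both times alone. For 102 h against 80 h it was 15.9%, 35.8% with the covariate, 5.34% at 0.01 and 48.8% on both times alone. The causes were not tested. The calls that held in each of the 27 settings at an adjusted p under 0.05 were 18 of 21 at 102 h against 8 h, 1 of 7 at 102 h against 80 h, 2 of 11 at 80 h against 60 h and 0 of 9 at 60 h against 30 h. TYS1 and KRS1 kept theirs at 80 h, and SUI2 kept its rise at 102 h against 80 h. FRS2 at 60 h lost its call in 15 settings. Where 1 array of a time remained, its spread was taken from the other times. A block for chip lot or scan date was not run, since the files hold no values for them. All samples came from the same vessel, and the number of arrays limits the precision. TIF3 lay near the background threshold.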
